A study of Mus musculus with 2 samples.

Results

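Open chromatin was described at 10 genes that encode receptors and regulators of endothelial cells, the cells that line blood vessels, in the calf muscle of old mice. The 10 genes were Kdr, Flt1, Tek, Tie1, Pecam1, Cdh5, Robo4, Erg, Sox17 and Sox18, taken by name from 21826 protein-coding genes. DNase-seq, which finds accessible DNA from the cuts that DNase I makes in chromatin, was run on gastrocnemius tissue. The mice were adult males of the hybrid strain B6CASTF1/J and were 18 to 20 months old. The 2 samples are biological replicates 1 and 2 of 1 group, with no treatment, no other age and no control, so no difference between groups was tested. Both carry the same donor label, and whether they came from 1 animal is not known. Around each gene, all peaks between 50 kb before and 50 kb after the gene body were taken, on the mouse build mm10. The 10 windows held 149 of 131398 peaks in replicate 1 and 97 of 91567 in replicate 2.

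Vascular endothelial growth factors act on endothelial cells through receptor tyrosine kinases: Kdr carries most of the growth and permeability signal, and Flt1 binds the ligand tightly with weak kinase activity and limits it. Tek is the receptor for angiopoietins, which keep vessels stable, and Tie1 is its partner without a well-established ligand of its own. Pecam1 and Cdh5 join endothelial cells to each other, Robo4 is a guidance receptor that steadies vessels, and Erg, Sox17 and Sox18 are transcription factors of the ETS and SOX families that hold endothelial identity. In muscle, capillaries run between the fibres, and endothelial nuclei are a minority beside fibre nuclei. In such a bulk sample, fewer endothelial nuclei and less accessible chromatin per nucleus cannot be told apart.

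The sequences below show where the enzyme left protected stretches (footprints) at these genes. They were read from the GRCm38 (mm10) genome on the strand of the gene, and capitals mark bases inside a footprint in both replicates. The first 3 are the promoters with the most footprints called in both replicates, each ending 30 bases after the annotated start site. The Pecam1 element carried the strongest distal peak inside a gene body. The Tek element was chosen after its values were seen, as the strongest of a group of peaks in the first intron.
Flt1 promoter, chr5:147725982-147726281, minus strand: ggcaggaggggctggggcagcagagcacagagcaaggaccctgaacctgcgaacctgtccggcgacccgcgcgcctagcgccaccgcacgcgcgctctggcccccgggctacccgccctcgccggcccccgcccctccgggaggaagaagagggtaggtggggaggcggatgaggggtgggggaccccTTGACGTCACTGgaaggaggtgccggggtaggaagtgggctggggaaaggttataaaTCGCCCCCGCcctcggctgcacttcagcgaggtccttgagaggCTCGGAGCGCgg
Kdr promoter, chr5:75978429-75978728, minus strand: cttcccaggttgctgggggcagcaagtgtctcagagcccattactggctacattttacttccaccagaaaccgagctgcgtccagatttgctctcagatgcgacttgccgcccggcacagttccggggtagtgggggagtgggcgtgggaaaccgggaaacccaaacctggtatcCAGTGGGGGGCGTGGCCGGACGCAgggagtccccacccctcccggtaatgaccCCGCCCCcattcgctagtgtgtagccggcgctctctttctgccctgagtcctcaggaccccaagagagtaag
Sox18 promoter, chr2:181671611-181671760, minus strand: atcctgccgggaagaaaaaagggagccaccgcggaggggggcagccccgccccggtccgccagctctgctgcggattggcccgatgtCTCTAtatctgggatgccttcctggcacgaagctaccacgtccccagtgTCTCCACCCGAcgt
Pecam1 intron 14, chr11:106678081-106678280, minus strand: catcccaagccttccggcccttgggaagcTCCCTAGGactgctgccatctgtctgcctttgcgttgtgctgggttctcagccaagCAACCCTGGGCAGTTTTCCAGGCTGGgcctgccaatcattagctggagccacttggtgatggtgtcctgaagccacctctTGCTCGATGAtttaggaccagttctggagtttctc
Tek intron 1, chr4:94746641-94746840, plus strand: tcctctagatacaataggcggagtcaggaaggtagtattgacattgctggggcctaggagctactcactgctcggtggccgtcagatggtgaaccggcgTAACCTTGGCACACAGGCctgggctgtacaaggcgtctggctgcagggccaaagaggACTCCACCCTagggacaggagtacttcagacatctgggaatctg

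In the Flt1 promoter, 32 bases lay in footprints of both replicates. One of these runs holds TGACGTCA, the cyclic AMP response element bound by CREB and ATF factors, at bases 190 to 197 from the 5′ end of the printed sequence. This motif was added to the search after the sequence had been seen. It occurred in the 300 bases around the start site (250 before, 50 after) of 1 of the 10 genes and of 2.46% of all genes. In the Kdr promoter, the shorter run of capitals covers a GC box, GGGCGG on the other strand, at bases 229 to 234. The same motif occurred around the start sites of 6 of the 10 genes and of 43.8% of all genes. In Sox18, 16 bases lay in footprints of both replicates, and none of the 14 motifs searched fell in them. In the Pecam1 element, the longest run holds the ETS core GGAA on the other strand at bases 101 to 104, a 4-letter motif that 91.7% of shared distal peaks hold when cut to 200 bases. The Tek element has no searched motif in its capitals. Its one ETS motif, CAGGAA at bases 25 to 30, lies outside them.

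Promoters were open at most of the 10 genes but weak. A promoter was taken as 1000 bp on either side of any annotated protein-coding start site, and the signal is the authors' own value per peak, scaled separately in each replicate. Of the 10 genes, 9 carried such a peak in replicate 1, 9 did in replicate 2 and 8 did in both. Over all protein-coding genes the shares were 65.7%, 63.5% and 62.4%. The median strongest promoter signal was 0.579 over the 9 genes with a peak in replicate 1 and 1.03 over the 9 in replicate 2. Over all genes with a promoter peak the medians were 3.16 and 3.41. All 9 ranked promoters lay below the median gene in each replicate, between percentiles 5.21 and 20.5 in replicate 1 and between 4.97 and 23.0 in replicate 2.

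CpG content sorts mouse promoters strongly by openness, so all genes were ranked by promoter CpG content and split into 3 classes of equal size. Tek, Tie1, Pecam1, Cdh5, Robo4 and Erg fall in the low class, where 4 of the 6 were open in both replicates and 16.4% of all genes of that class were. Kdr, Flt1, Sox17 and Sox18 fall in the high class, where all 4 were open, as were 92.5% of all genes there. None falls in the middle class, where 78.3% of all genes were open. The members are few and were chosen by name, and these shares were not tested.

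**Figure D1:**
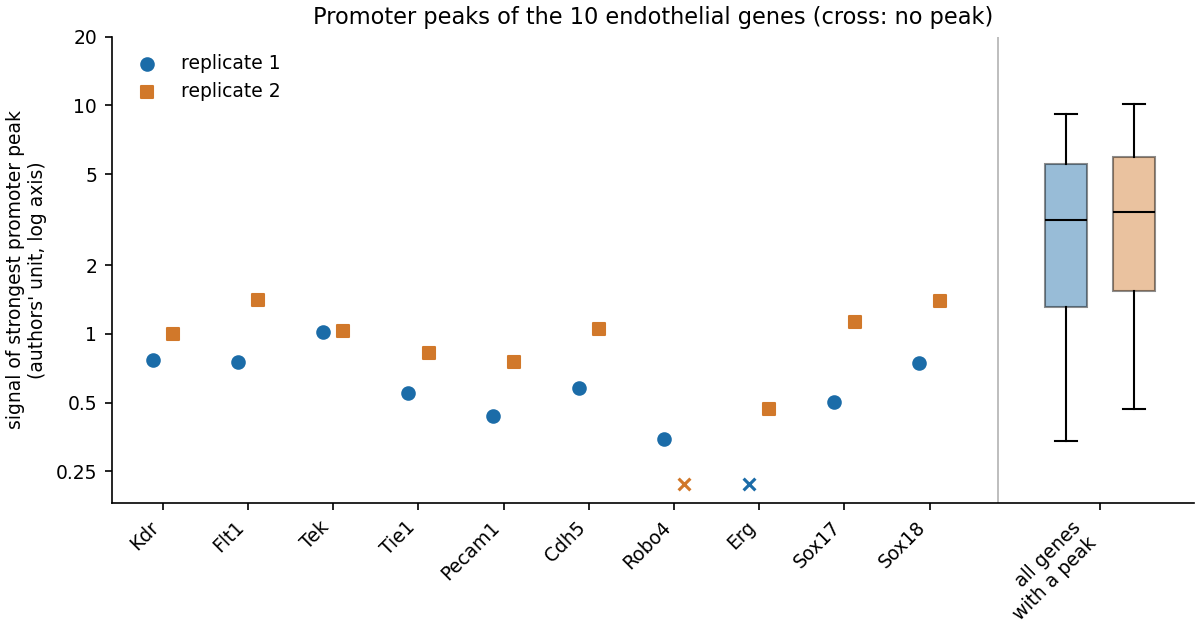
Signal of the strongest promoter peak of each of the 10 genes in replicate 1 (circles) and replicate 2 (squares), on a log axis in the authors' unit, with crosses where no peak was called; at the right, boxes give the quartiles and median, and whiskers percentiles 5 and 95, of all genes with a promoter peak. All called member promoters lie between 0.345 and 1.41, below the medians of 3.16 and 3.41 of all genes.

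Among the receptor tyrosine kinases, Tek (chromosome 4, 94739289 to 94874976) had the steadiest promoter, with signals of 1.02 in replicate 1 and 1.03 in replicate 2. Flt1 (chromosome 5, 147561604 to 147726011) had 0.756 and 1.41. Kdr (chromosome 5, 75932827 to 75978458) had 0.766 and 0.995. Tie1 (chromosome 4, 118471191 to 118490061) was the lowest of these with 0.553 and 0.827. All 4 promoter peaks were also in the stricter of the deposited lists in both replicates. Extent and height ran apart at Flt1, which had 6 promoter peaks in replicate 1 and 2 in replicate 2. Cleavage sites with a false discovery rate under 0.05 covered 93.8% of its promoter bases in replicate 1 and 54.4% in replicate 2. The covered share was 40.8% and 34.0% at Kdr, 42.7% and 38.0% at Tek, and 16.5% and 13.8% at Tie1. Over all genes its median was 19.3% and 16.6%.

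Among the junction and guidance receptors, Cdh5 was in the range of the kinases, and Pecam1 and Robo4 lay below all 4 of them. Cdh5, which encodes VE-cadherin (chromosome 8, 104101625 to 104144511), had a promoter signal of 0.579 in replicate 1 and 1.05 in replicate 2, in a peak on its first exon. Pecam1 (chromosome 11, 106654217 to 106750628) had 0.437 and 0.755, and its peak sat at an internal start site rather than at the 5′-most one (106715177 to 106715305 for replicate 1). It was in the stricter list in replicate 2 and not in replicate 1. Robo4 (chromosome 9, 37401897 to 37415115) had 0.345 in replicate 1, outside the stricter list, and no promoter peak in replicate 2. Sites covered 3.86% of Robo4 promoter bases in replicate 1 and 0 in replicate 2.

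Of the transcription factors, Sox18 (chromosome 2, 181669836 to 181671640) had a promoter signal of 0.746 in replicate 1 and 1.39 in replicate 2. Sox17 (chromosome 1, 4490931 to 4497354) had 0.503 and 1.12 at an internal start site (4493661 to 4493740 for replicate 1). The peak at its 5′-most start was lower, at 0.305 and 0.486. Erg (chromosome 16, 95359169 to 95586593) had no promoter peak in replicate 1 and 1 in replicate 2, with a signal of 0.470. That peak (95585503 to 95585812) lies 935 bp inside the gene, near the edge of the promoter window, and it was in the stricter list. Erg and Robo4 were thus the genes of the 10 without a promoter peak in both replicates. None of the promoter peaks of the 10 genes lay within 1000 bp of a protein-coding start site of another gene.

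Away from the promoters, the windows held 112 distal peaks in replicate 1 and 70 in replicate 2. Of these, 61 in replicate 1 (54.5%, 95% interval 44.8 to 63.9) and 60 in replicate 2 (85.7%, 75.3 to 92.9) overlapped a peak of the other replicate by at least 1 bp. Over the whole genome, 52.8% and 81.7% of distal peaks did, values inside those exact binomial intervals, which cover counting error only. Joined across replicates, the shared peaks formed 58 distal regions. Flt1 had 12 of them, Pecam1 10, Erg 9, Tek 8, Sox18 6, Cdh5 4, Kdr 3, Robo4 3, Tie1 2 and Sox17 1. Inside the body of the named gene lay 25, and 34 had that gene's start site as the nearest protein-coding one. Distal peaks per 100 kb had a median of 6.60 and 3.45 over the 10 windows, against 4.81 and 2.92 over the same windows of all genes. The windows of 6 and 7 of the 10 genes were above that median.

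**Figure D2:**
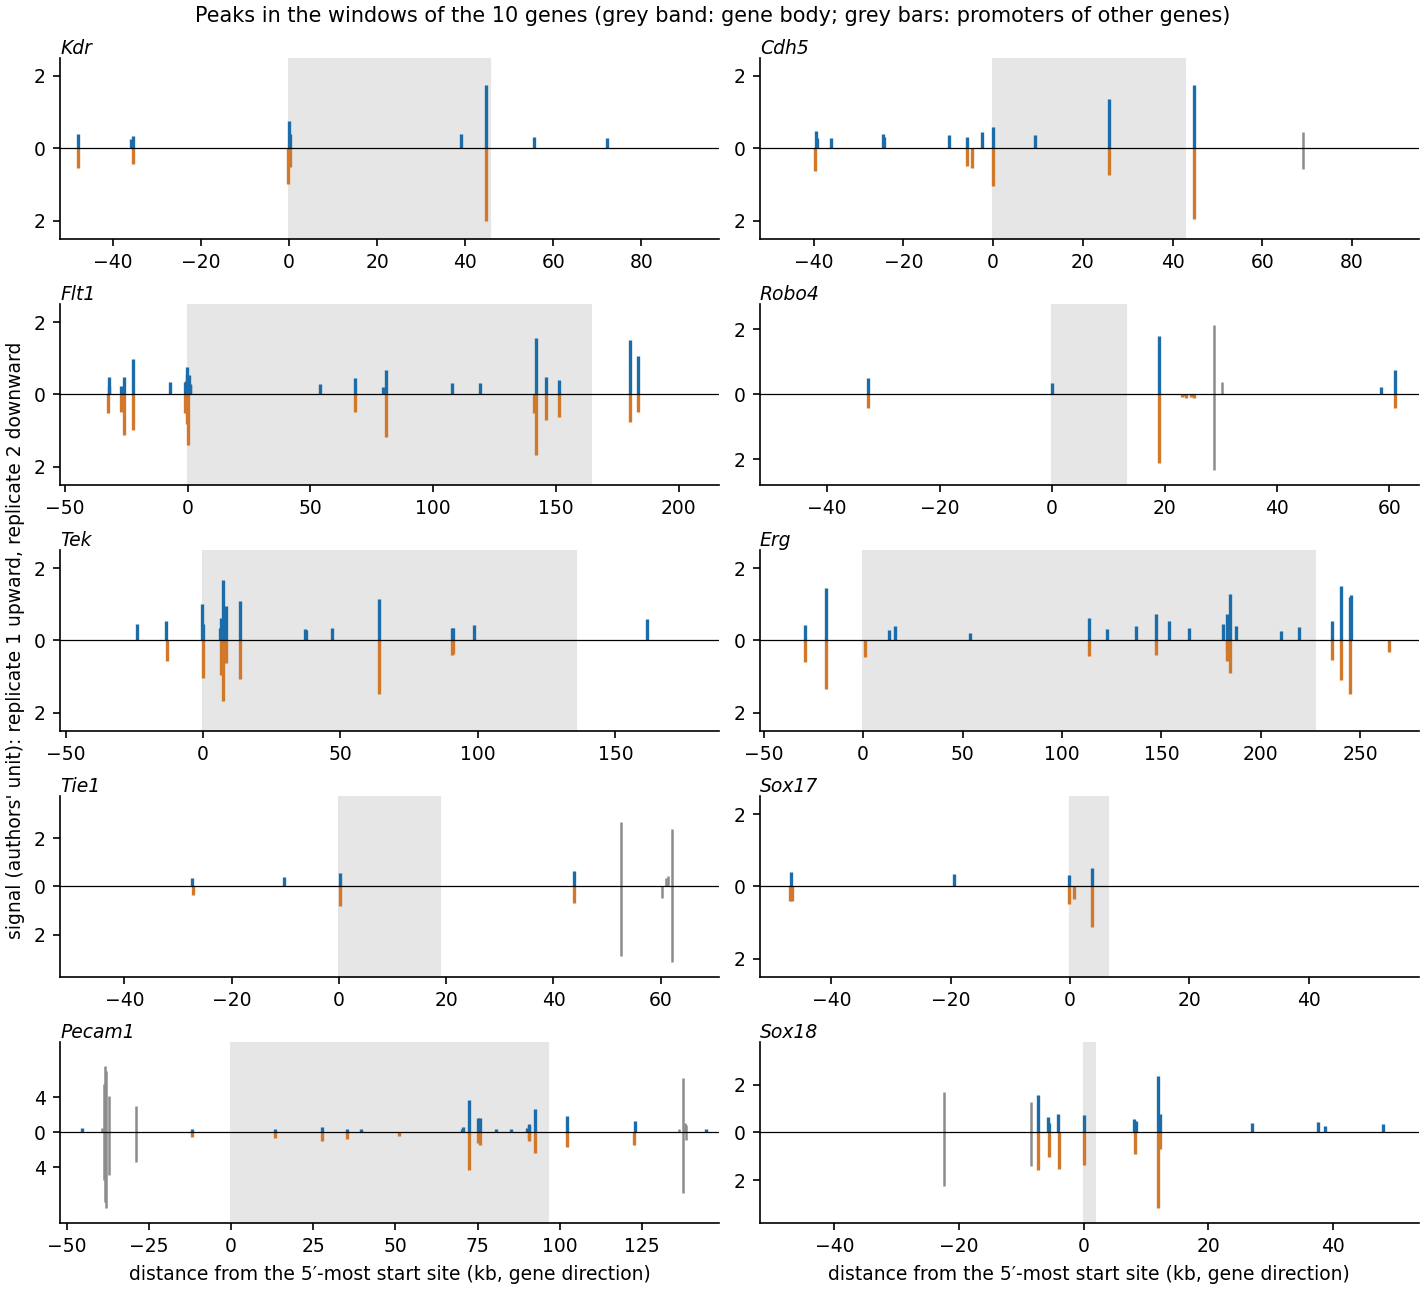
Peaks in the window of each gene by distance from its 5′-most start site in kb, in the direction of the gene, with the signal of replicate 1 drawn upward and that of replicate 2 downward; the grey band is the gene body and grey bars are promoter peaks of other genes. Tek has a group of peaks just inside its start, and the highest peak of Pecam1, 3.74 and 4.31, stands far inside the gene body.

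Pecam1 held the strongest distal region of the 58, in intron 14 of the transcript with the most exons, 72.4 kb inside the 5′-most start. Its signal was 3.74 in replicate 1 and 4.31 in replicate 2, at percentiles 94.4 and 93.3 of all peaks. A further pair of peaks lay near it in the same intron, with 1.63 and 1.48 at the first (chromosome 11, 106674661 to 106675220) and 1.62 and 1.22 at the second (106675241 to 106675679). Towards the 3′ end of the gene record, a region at 106658101 to 106658320 had 2.66 and 2.40, with Tex2 as the nearest start site. The promoter of Pecam1 was among the weakest of the 10, while its window held the strongest distal peak.

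Of the 8 shared regions of Tek, 4 lay in the first intron. They were 6.62, 7.45, 8.25 and 13.4 kb inside the 5′-most start. The element printed above, at 7.45 kb, had signals of 1.66 in replicate 1 and 1.67 in replicate 2. The next to either side had 0.614 and 0.945 at 6.62 kb and 0.964 and 0.621 at 8.25 kb, so the replicates ordered these 2 differently. The peak at 13.4 kb had 1.10 and 1.06. One more intronic region stood 64.2 kb inside, in intron 4, with 1.14 and 1.48. All 8 shared regions of the Tek window had the Tek start as the nearest one.

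The growth factor receptors differed in layout. Kdr had 1 distal region inside its body called in both replicates, on its last exon, exon 30 (chromosome 5, 75933621 to 75933840), with 1.76 in replicate 1 and 2.00 in replicate 2. This region lies in the 3′ untranslated part. No distal peak of either replicate fell in the first intron of Kdr. Flt1 had 5 in its body, led by intron 20 (147584041 to 147584240), with 1.56 and 1.67, where the nearest start site is that of Pan3. A group of 4 lay 22.3 to 32.3 kb before the Flt1 start, of which the one nearest to it had 0.980 and 0.978. Tie1 had no distal peak in its body in either replicate, and its 2 shared regions were nearest to other genes.

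Beside Cdh5, the strongest region lay just past the 3′ end of the gene (chromosome 8, 104146401 to 104146600), with 1.75 in replicate 1 and 1.96 in replicate 2. Its nearest start site is that of Bean1. Inside the gene, intron 4 held 1 region with 1.36 and 0.749. The strongest region in the Robo4 window (chromosome 9, 37420761 to 37420980) had 1.79 and 2.11, but it lies in the body of Robo3, the neighbouring guidance receptor gene, whose own promoter had 2.13 and 2.32. No distal peak of the Robo4 window lay in Robo4 itself.

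Erg, whose promoter was the least open of the transcription factors, had distal regions at several positions called in both replicates. One stood 18.9 kb before the 5′-most start (chromosome 16, 95605401 to 95605580), with 1.46 in replicate 1 and 1.35 in replicate 2. Another, in intron 4 (95401901 to 95402140), had 1.28 and 0.906. Sox18, a short gene of 1.81 kb, had its strongest region 11.9 kb past its start (chromosome 2, 181659641 to 181659840), with 2.39 and 3.16, where the nearest start site is that of Gm29797. Before the start, the region at 4.03 kb had 0.756 and 1.53. Sox17 had 1 shared distal region, 46.8 kb before its start, with 0.391 and 0.403.

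The strongest distal peak exceeded the strongest promoter peak at 8 of the 9 genes with a promoter peak in replicate 1 and at 7 of 9 in replicate 2. The ratio was highest at Pecam1, 8.57 and 5.71. Sox17 was the exception in both replicates, with ratios of 0.778 and 0.358, and Tie1 in replicate 2, with 0.811. Over all genes with a promoter peak and a distal peak in the window, the distal peak was the higher one at 38.2% in replicate 1 and 34.2% in replicate 2. Among genes whose promoter signal lay in the range of the 10 genes, the share was 88.6% and 82.2%. The counts at the 10 genes are near the shares of genes with promoters as weak as theirs.

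**Figure D3:**
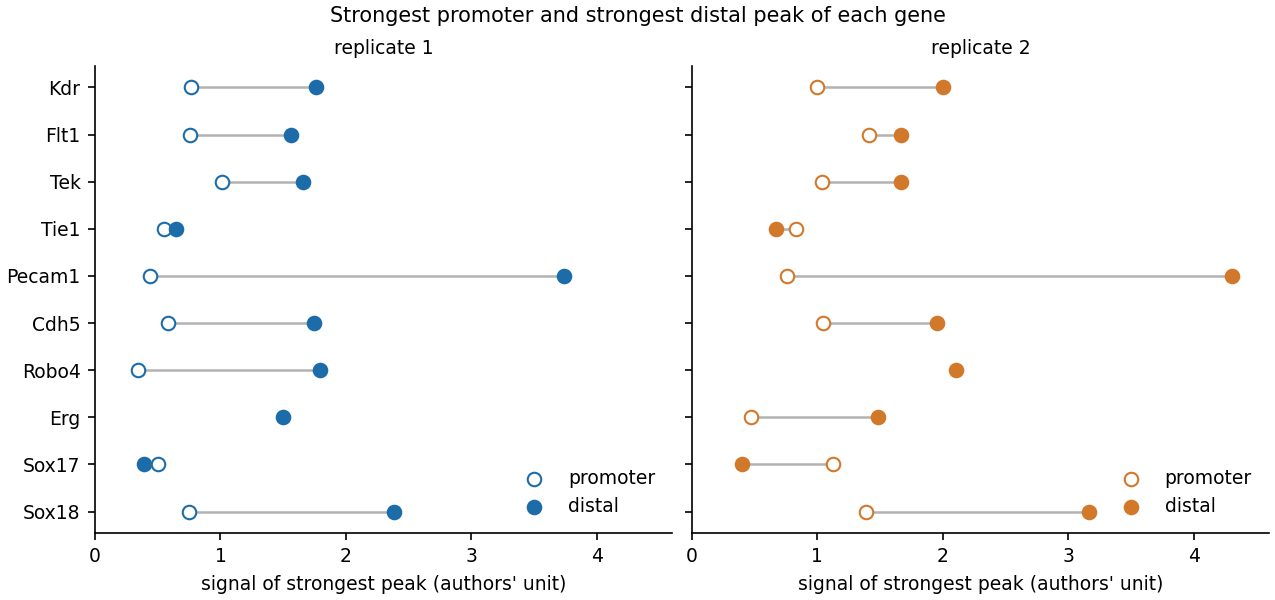
Signal of the strongest promoter peak (open circle) and strongest distal peak (filled circle) of each of the 10 genes, in the authors' unit, with replicate 1 at the left and replicate 2 at the right; a missing open circle means no promoter peak. The Pecam1 pair is the widest, at 0.437 against 3.74 in replicate 1 and 0.755 against 4.31 in replicate 2.

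Between the replicates, the strongest promoter peak differed in 1 direction at most of the 10 genes. The share of promoter bases covered by sites did not share this direction. It was higher in replicate 1 at Kdr, Flt1 (93.8% and 54.4%), Tek, Tie1 and Cdh5, and higher in replicate 2 at Pecam1, Sox17 and Sox18. Over all genes its median was 19.3% and 16.6%, and these shares were not centred on it. By percentile of this share among all genes, Tek (75.5 and 75.9) and Cdh5 (40.7 and 41.1) were higher in replicate 2. The other genes kept their side. For the strongest promoter peak, the log2 ratio of replicate 1 to replicate 2 was taken less the median of all genes open in both. Its median was -0.72 over the 8 genes with a promoter peak in both. The ratio was below 0 at 7 of them. Sox17 was lowest at -1.06, and Tek was the exception at 0.07. Over all 13621 genes open in both replicates, the quartiles of the ratios were -0.14 and 0.14. Over the 1266 genes whose mean promoter signal lay in the range of these 8, the median was -0.05 and the quartiles were -0.30 and 0.20. The 58 shared distal regions lay closer to 0, with a median of -0.23 and 42 below 0, where the quartiles over all shared distal peaks were -0.28 and 0.31. Kdr, Flt1 and Sox18 had distal medians of -0.45, -0.44 and -0.61, and Erg and Robo4 had 0.27 and 0.19.

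Other gene lists lay on either side of 0. The 67 other endothelial genes open in both replicates had a median of -0.19, with 47 below 0. The 5 macrophage genes had -0.39, with 4 below 0. The 11 mural genes, listed for the contractile cells around vessels, had 0.29, with 3 below 0. Of these, Mcam is also on the other endothelial list, and Des is also a muscle gene. All 12 skeletal muscle genes were above 0, with a median of 0.38. The lists were not tested against each other, and the share of each cell type in the 2 samples was not measured. Their part in the difference at the 10 genes was not tested.

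**Figure D4:**
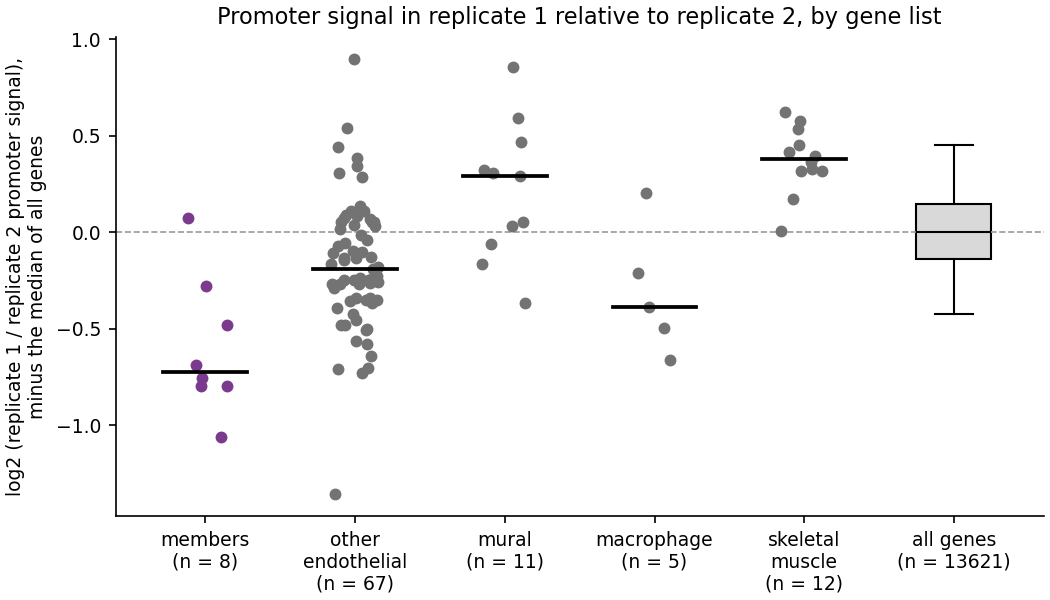
Log2 ratio of the promoter signal in replicate 1 to that in replicate 2, less the median of all genes, for genes with a promoter peak in both replicates; points are genes, bars list medians, and the box gives the quartiles of all genes with whiskers at percentiles 5 and 95. The 8 members have a median of -0.72 and the 12 skeletal muscle genes one of 0.38.

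Ligands, co-receptors and regulators that act with the 10 genes were read on the same scale. Of 79 such genes, 72 were open at the promoter in replicate 1, 67 were in replicate 2 and 67 were in both, where 65.7%, 63.5% and 62.4% of all genes were. Counts by role can be read against the last of these, and those of the ligands, junction genes and function genes lie near it. Median promoter CpG content was 0.506, 0.312 and 0.313 in these lists, within the middle class, where 78.3% of all genes were open in both. The junction and function medians lie close to the lower cut of 0.291, below which 16.4% were. These lists mix genes of different classes, so neither class share alone is their background. The median signal was 1.15 over the 72 genes open in replicate 1 and 1.53 over the 67 open in replicate 2. Each lay above the median of the 10 genes and below that of all genes, taken over genes with a promoter peak. Of the ligands, 7 of 10 were open in both, led by Vegfa, the main ligand of Kdr and Flt1, with 5.29 in replicate 1 and 4.47 in replicate 2, and by Vegfb, a ligand of Flt1, with 1.19 and 1.53. Angpt2, a context-dependent ligand of Tek, and Angpt4 had no promoter peak in either replicate. Of the co-receptors and phosphatases, 8 of 10 were open, led by Plxnd1, a semaphorin receptor, with 4.78 and 6.07, and Unc5b, a netrin receptor that also binds Robo4, with 4.09 and 6.10. Flt4, the lymphatic member of the Kdr family, and Aplnr, the apelin receptor, had no promoter peak.

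Of the junction and surface genes, 8 of 12 were open in both, led by Cd34 with 1.82 in replicate 1 and 2.16 in replicate 2 and Esam with 1.51 and 1.84. Plvap, a component of the diaphragms of fenestrated vessels, had no peak. Of the genes of endothelial function, 7 of 10 were open, led by Thbd, the thrombomodulin gene, with 2.49 and 2.87, and Cav1, which builds caveolae, with 1.83 and 1.98. Arhgef15 and She had no peak. Of the regulators, 7 of 7 ETS factors, 17 of 17 other transcription factors and 13 of 13 genes on the Notch list were open in both. The Notch list also holds ephrin ligand and receptor genes (Efnb2, Ephb4) and connexin genes (Gja4, Gja5). The medians of promoter CpG content of these 3 lists (observed over expected) were 0.621, 0.703 and 0.571, in the high CpG class, where 92.5% of all genes were open in both. Elf1, whose promoter peak is shared with Wbp4, had 6.30 and 6.42, and Ets1 had 5.27 and 6.90. Klf2, which responds to blood flow, had 8.52 and 8.46, Klf4 4.03 and 5.12, the Notch target Hey2 6.22 and 7.79, and the Notch ligand Jag1 4.61 and 4.76. Several of these factors also act in other cells of muscle, so their promoters need not report endothelial nuclei.

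Other cell types gave a scale for these values. The skeletal muscle list was open at 12 of 12 promoters in both replicates, with medians of 3.22 and 2.37. The promoter peaks of Actn3, Mylpf and Cacna1s on it are shared with Zdhhc24, Tbc1d10b and Ascl5. The mural list was open at 11 of 12 in both. Its medians were 1.45 over the 12 genes open in replicate 1 and 1.22 over the 11 in replicate 2. On it, Mcam is also an endothelial gene, Des is a muscle gene and the Cspg4 peak is shared with Odf3l1. The macrophage list was open at 5 of 12 in both. Its medians were 0.482 over the 7 genes open in replicate 1 and 0.520 over the 5 in replicate 2, so they cover different genes. Csf1r, Ptprc, Itgam, Cd163 and Fcgr1 had no promoter peak in either replicate. None of 6 genes of liver, neurons and germ cells had one. Over all genes 62.4% were open in both replicates. The median promoter CpG content was 0.265 in the muscle list and 0.205 in the macrophage list, within the low class, where 16.4% of all genes were open in both. It was 0.301 in the mural list, within the middle class, where 78.3% were, but close to the lower cut of 0.291. These lists mix genes of different classes, so no class share alone is their background.

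ETS factors bind a GGAA core, so the longer ETS motif (CCGGAA or CAGGAA, both strands) was searched in the windows of the 10 genes. In the 300 bases around the 5′-most start site, 8 of the 10 genes held it, against 41.7% of all genes, and Flt1 and Erg were those without it. This stretch leaves out the strongest promoter peaks of Pecam1 and Sox17, which lie at internal start sites. Of the promoter peaks of the 10 genes, 9 of 18 held it in replicate 1 (26.0 to 74.0%) and 8 of 13 in replicate 2 (31.6 to 86.1%). Over all promoter peaks the shares were 35.1% and 35.8%, inside both intervals. The CACC box bound by Krüppel-like factors (CCACACCC or CCCCACCC) occurred around 4 of the 10 start sites, against 14.3%, and the SOX motif (ACAAT) around 4 of 10, against 28.7%. Of the promoter peaks of the 10 genes, 38.9% held the CACC box in replicate 1 (17.3 to 64.3) and 46.2% in replicate 2 (19.2 to 74.9). Over all promoter peaks the shares were 12.1% and 12.6%, outside both intervals. These intervals count each peak as separate, though 6 of the 18 in replicate 1 belong to Flt1. The CACC box was picked from the motifs searched, and the difference was not tested. Among the 58 shared distal regions, 30 held the longer ETS motif, and in 3 of these a match touched a footprint in each replicate. Shared distal peaks over the genome, cut to 200 bases, held it in 30.7%, though many member regions are wider than that. At deposited widths, 44.3% of the member distal peaks called in both held it in replicate 1 (31.5 to 57.6) and 40.0% in replicate 2 (27.6 to 53.5), against 32.7% and 29.4% over the genome, shares inside both intervals.

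The longer ETS motif lay in 4 of 246 footprints in replicate 1 (1.63%, 95% interval 0.445 to 4.11) and in 3 of 176 in replicate 2 (1.70%, 0.353 to 4.90). Over all peaks the shares were 1.32% and 1.34%. Equally wide windows beside the member footprints, inside the same peaks, held it in 2.41% and 1.02% of cases. The short core GGAA lay in 10.6% and 7.95% of member footprints and in 15.2% and 10.8% of the windows beside them. The SOX motif lay in none of the footprints of either replicate, with upper bounds of the 95% interval at 1.49% and 2.07%, against 0.636% and 0.546% over all peaks. All these intervals for the longer ETS and SOX motifs hold the share over all peaks. The myogenic E-box (CAGCTG) lay in 8 of 246 member footprints in replicate 1 (3.25%, 1.41 to 6.31) and in 4 of 176 in replicate 2 (2.27%, 0.623 to 5.72), against 1.31% and 1.32% over all peaks. Of the 28 footprint shares compared (14 motifs in 2 replicates), this one in replicate 1 was the 1 whose interval left out the share over all peaks. Shares of whole peaks were not part of that count. No motif match says which protein was bound.

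The motif found most often in member footprints after the short ETS core was that of CTCF, the factor that anchors chromatin loops. It lay in 9 of 246 footprints in replicate 1 (3.66%, 1.69 to 6.83) and in 8 of 176 in replicate 2 (4.55%, 1.98 to 8.76), against 2.05% and 2.24% over all peaks. Both intervals hold the share over all peaks. The windows beside the member footprints held it in 0 of 415 and 0 of 295 cases, and those beside all footprints in 0.0075% and 0.012%. The motif is 11 bases long and the median footprint over the genome 10, so many of these windows, like many footprints, are too short to hold it. Of the 58 shared distal regions, 10 held the CTCF motif, and in 8 a match touched a footprint in each replicate, a looser rule than that of the footprint shares, where the whole motif must lie inside. These 8 lie in the windows of Flt1, Erg, Cdh5, Pecam1, Sox18 and Kdr. They include the regions in intron 20 of Flt1, past the 3′ end of Cdh5 and 48.0 kb before Kdr. At deposited widths, 14.8% of the member distal peaks called in both held the motif in replicate 1 (6.98 to 26.2) and 16.7% in replicate 2 (8.29 to 28.5), against 10.4% and 10.3% over the genome, shares inside both intervals.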

How the data were processed

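DNase-seq files of 2 samples, biological replicates 1 and 2 of 1 group, were used: for each sample 2 peak lists plus footprints and cleavage sites, on mm10 per the labels. The peak, site and footprint callers and the aligner are not given in the sources used here. The deposited peak lists hold a signal per peak; its unit and the depth are unknown. Below 1, all signal values were whole multiples of 0.00508 in replicate 1 and 0.00559 in replicate 2 (tolerance 0.05 of a step), with no stated meaning. The deposited site files hold a p-value type column, a false discovery rate under 0.05; in the deposited footprint files it is a constant 0.01, a threshold. The larger (inclusive) peak list was used, and the smaller is called the stricter list.

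The gene set was GENCODE M21, with 21826 protein-coding symbols; a promoter peak overlaps 1000 bp on either side of a protein-coding start site, and other peaks are distal. Introns were numbered in the transcript with most exons. Motifs were searched on both strands, counting a peak or footprint once per motif: the longer ETS motif and its core, the SOX, MEF2 and CTCF motifs, AGATAA for factors of the GATA family, TGTTTAC for forkhead factors, TGACTCA for AP-1, TGGGAA for RBPJ, CAGCTG for the myogenic E-box, GGAATG for TEAD factors, the GC and CACC boxes and the cyclic AMP response element. The longer ETS motif contains the core, and RBPJ and TEAD motifs can overlap it. Footprints are short, so a motif cut by a footprint's edge is missed.

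Shares carry 95% Clopper-Pearson (exact) intervals, for counting error alone; peaks of 1 gene share a locus. Percentiles and log2 ratios describe the files, since each list was scaled separately. Both alleles of the hybrid were read against the reference, and alleles were not separated. The members and lists were chosen with earlier results of these data known. Named beside the members were, per role, the 2 genes open in both replicates with the highest mean promoter percentile and every gene without a promoter peak in either. Overlap and classification code was checked on planted peaks. Python 3.11.15, pandas 2.3.3, pysam 0.24.0 and scipy 1.17.1 were used.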

Additional observations from a re-analysis of the deposited data

How the results depend on the processing

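No paired analysis was possible because both libraries belong to 1 group. A total of 45 alternatives were computed over 5 results. With the strict list, the median percentile of the strongest promoter peak among all peaks was 41.3, against 55.9 (SD 10.7, n = 2), 33 distal peaks of replicate 1 were called in both, against 61, and 2.08% of footprints held the longer ETS motif, against 1.67%. With the better 50% of each list by signal, 4 genes had a promoter peak in both replicates, against 8, the percentile was 23.7 and 29 distal peaks were shared; both settings shorten the lists. Counting only distal peaks nearest to the named gene's start left 34. The ETS share was 1.74% with flanks of 25 kb, 1.13% with 100 kb, 2.68% in own promoter and gene body peaks alone and 9.26% for the core GGAA; it rests on single footprints. Without 1 replicate in turn, the percentile was 48.3 to 63.5, the share of distal peaks called in both 54.5% to 85.7% and the ETS share 1.63% to 1.70%. The share of distal peaks called in both ranged from 51.5% to 85.7% over the alternatives, against 70.1% (SD 22.1, n = 2). No alternative moved it by more than that SD, but the SD is wide. With 2 replicates, leaving 1 out always moves the value by less than the SD, so this says little about stability. With the same number of top peaks in both replicates, the share was 75.7% (SD 6.06), and with 50% reciprocal overlap it was 51.5%. With the 5′-most start site alone, 7 genes had a promoter peak in both, and with windows of 500 or 2500 bp, 8. Replicate 1 lists more peaks, depth is unknown, and a gene without a peak may be open below the calling threshold.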
